A study of Bos taurus with 16 samples.

Results

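The 10 genes of antibody-secreting cells followed here in the spleen of beef steers that differed in weight gain and feed intake were JCHAIN, LMAN1, MZB1, TNFRSF17, DERL3, PRDM1, IRF4, XBP1, CD38 and SDC1. They were taken by name from the platform annotation, as the transcript clusters that carried 1 of these symbols and no other. All 10 genes were found, as 11 of the transcript clusters, and the values of the 2 CD38 clusters were averaged. They stood among 24630 rows tested, 18442 of which were named genes. Each of 16 steers gave RNA for 1 Affymetrix Bovine 1.1 ST array, whose values are log2 signals.

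The animals were crossbred steers, castrated males about a year old at the start, that ate a standard concentrate diet for 84 days and were chosen as the most divergent in gain and intake of a larger cohort. There were 4 high gain-high intake (HH), 4 high gain-low intake (HL), 4 low gain-low intake (LL) and 4 low gain-high intake (LH) steers, named by these letters below. The groups are observed phenotypes and not treatments, and breed composition differed between them and cannot be told apart from gain and intake. The piece of spleen came from near its free end and held all of the cell types there. Steers are numbered 1 to 4 within a group only to name them.

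A B cell that meets its antigen can become a plasma cell, which gives up much of the B cell program and turns its endoplasmic reticulum (ER) over to making antibody. The transcription factors IRF4, PRDM1 (Blimp-1) and XBP1 drive that change, and XBP1 also enlarges the secretory machinery. In the spleen, plasma cells and their short-lived precursors, the plasmablasts, lie mostly in the red pulp and around its vessels. Since whole tissue was measured, fewer plasma cells, less RNA per plasma cell and a change in other cells that make the same RNA cannot be told apart here.

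None of the 10 genes passed an adjusted p of 0.05 in limma's F test over the 4 groups or in any of its 7 contrasts, and in each of these tests 0.00% of the 24630 rows did. At an unadjusted p of 0.05, the F test called 1 of the 10 genes, LMAN1, against 4.62% of all rows. The LL steers against the other 3 groups gave 3 of 10 (JCHAIN, SDC1 and LMAN1), against 5.41% of all rows. The LH steers against the rest gave LMAN1 alone, against 4.32%, and the interaction of gain and intake also gave LMAN1 alone, against 4.60%. The contrasts for gain (5.97% of all rows), intake (3.37%), HH (3.37%) and HL (5.48%) called none of the 10. Ordinary least squares on the same values also passed 0 of the 10 genes after adjustment. At an unadjusted p of 0.05 it called between 0 and 3 of the 10 genes in a test, and between 865 and 1535 of all rows.

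**Figure D1:**
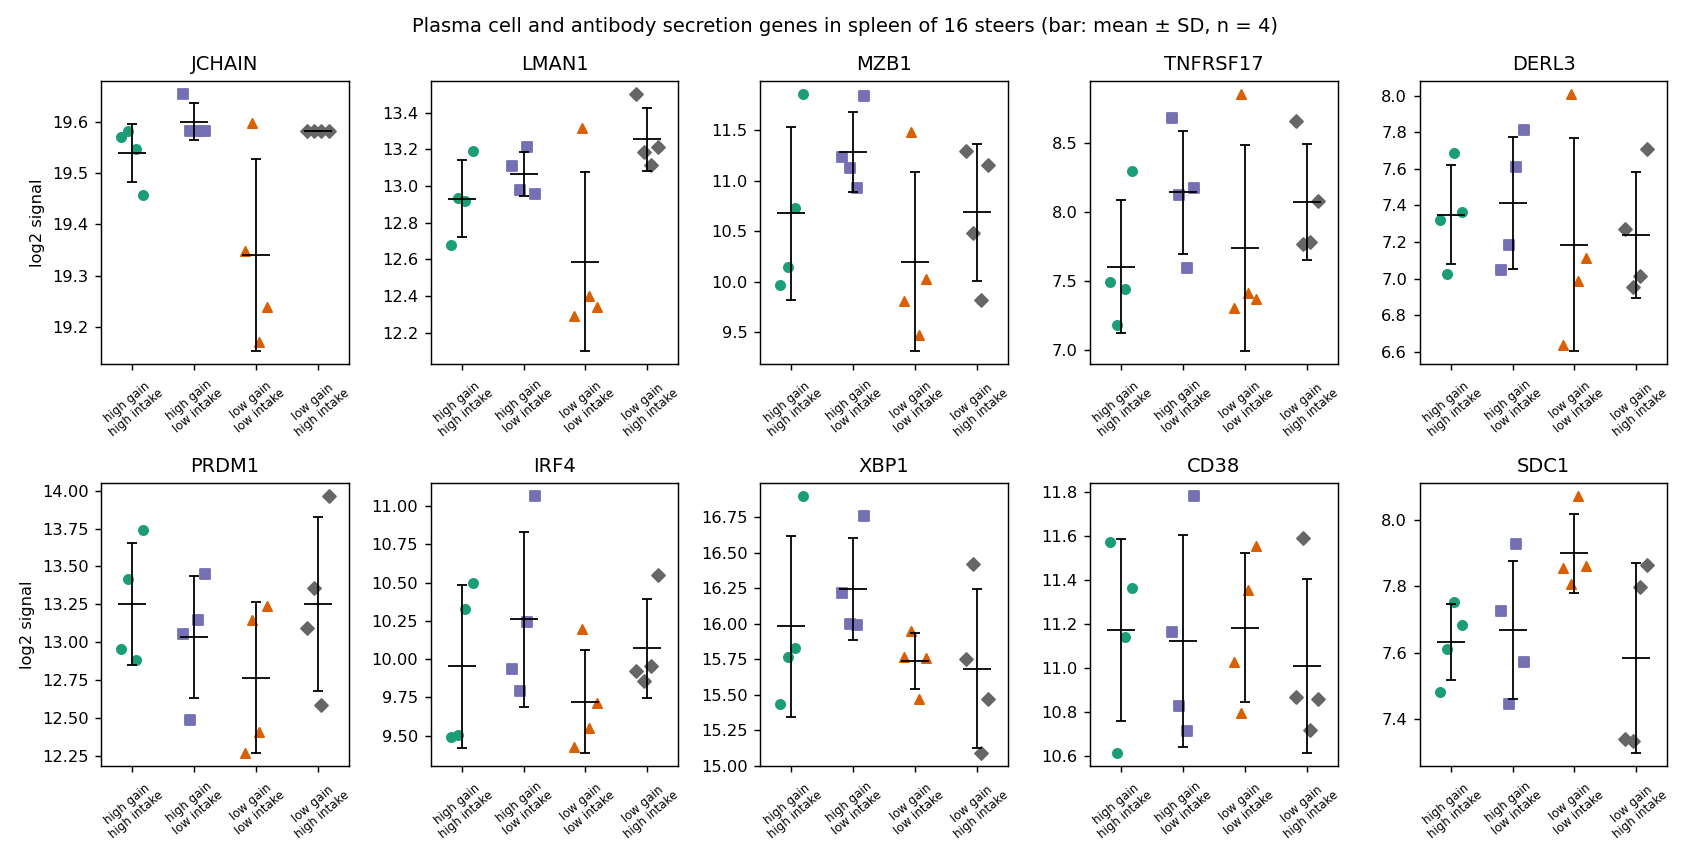
Log2 signal (y axis) of the 10 genes in each of the 16 steers (points) by group (x axis), with the mean and SD of 4 steers as a bar. In the LL group, 1 steer stands above the other 3 for JCHAIN, LMAN1, MZB1, TNFRSF17 and DERL3.

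JCHAIN encodes the joining chain that links IgM and IgA into polymers. Its log2 signal was 19.57, 19.58, 19.55 and 19.46 in the HH steers. It was 19.65, 19.58, 19.58 and 19.58 in the HL steers. It was 19.35, 19.60, 19.17 and 19.24 in the LL steers and 19.58 in all 4 LH steers. The 3 lowest values of the 16 were those of LL steers 1, 3 and 4, while steer 2 of that group had the second highest. The group lay 0.23 below the other 3 (log2, SE 0.088, n = 4 against 12, two-sided exact permutation p = 0.00659, limma adjusted p = 0.81).

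The JCHAIN differences are those of a probe set near the top of the scale. The same value, 19.5825, was held by 8 of the 16 steers, 1 HH, 3 HL and 4 LH. It lay 0.349 below the highest value that the deposited table holds. No other gene of the 10 had a value shared by 2 steers. Differences in JCHAIN among the steers at that value could not be seen, and group differences that rest on it, -0.23 included, have no exact size.

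LMAN1, a lectin that carries glycoproteins from the ER to the Golgi and takes part in the assembly of polymeric IgM, gave the smallest limma p of the 10 genes in the F test and in the LL contrast. Its log2 signal was 12.68, 12.93, 12.92 and 13.19 in the HH steers. It was 13.11, 12.98, 13.21 and 12.96 in the HL steers. In the LL steers it was 12.29, 13.32, 12.40 and 12.34, and in the LH steers 13.50, 13.18, 13.11 and 13.21. LL steers 1, 3 and 4 lay below all 12 steers of the other groups, and steer 2 lay above 11 of those 12, so that the groups overlapped. The group lay 0.50 below the rest (SE 0.162, exact permutation p = 0.0115, limma adjusted p = 0.74).

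In the other direction, the LH steers lay 0.39 above the rest in LMAN1 (SE 0.162, exact permutation p = 0.0478, limma adjusted p = 0.9998). The interaction of gain and intake (HH minus HL, less LH minus LL) was -0.80 (SE 0.281, exact permutation p = 0.0228, limma adjusted p = 0.9999).

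MZB1 is an ER protein that helps plasma cells and marginal zone B cells to assemble and secrete antibody. It had the widest range of the 10 genes. Its log2 signal was 9.96, 10.15, 10.73 and 11.86 in the HH steers and 11.23, 11.12, 10.92 and 11.84 in the HL steers. It was 9.81, 11.48, 9.47 and 10.02 in the LL steers and 11.29, 10.48, 9.82 and 11.16 in the LH steers. The HL steers lay close together at the upper end, and the other groups each held both high and low steers. HL lay 0.76 above the rest (SE 0.377, exact permutation p = 0.0868, limma adjusted p = 0.915) and LL 0.68 below it (estimate -0.68, SE 0.377, exact permutation p = 0.127, limma adjusted p = 0.942). Neither passed the test.

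TNFRSF17 (BCMA) is the receptor through which the cytokines BAFF and APRIL keep plasma cells alive. Its log2 signal was 7.50, 7.18, 7.44 and 8.30 in the HH steers and 8.68, 8.12, 7.60 and 8.17 in the HL steers. It was 7.31, 8.86, 7.42 and 7.37 in the LL steers and 8.66, 7.77, 7.78 and 8.08 in the LH steers. LL steer 2 had the highest value of all 16 steers, and the other 3 steers of its group were among the 4 lowest. The largest of its contrasts relative to the error was the interaction, at -0.87 (SE 0.490, exact permutation p = 0.104, limma adjusted p = 0.9999).

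DERL3, a membrane protein that helps to pass misfolded proteins out of the ER for degradation, was 7.32, 7.03, 7.68 and 7.36 in the HH steers and 7.05, 7.18, 7.61 and 7.81 in the HL steers. It was 6.64, 8.01, 6.99 and 7.11 in the LL steers and 7.27, 6.95, 7.02 and 7.71 in the LH steers. Both ends of its range lay in the LL group, and the groups overlapped throughout. Its group means were 7.35 ± 0.269 (SD, n = 4) for HH, 7.41 ± 0.359 for HL, 7.19 ± 0.584 for LL and 7.24 ± 0.344 for LH. The contrast for gain was 0.17 (SE 0.189, exact permutation p = 0.379, limma adjusted p = 0.924). It ran from 0.08 without LL steer 1 to 0.31 without LL steer 2, and was 0.10 without HL steer 4.

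Of the transcription factors, PRDM1, which represses much of the B cell program, was 12.96, 13.42, 12.88 and 13.74 in the HH steers and 13.05, 12.49, 13.14 and 13.45 in the HL steers. It was 12.27, 13.15, 12.41 and 13.24 in the LL steers and 13.09, 13.36, 12.58 and 13.97 in the LH steers. The LL group held the 2 lowest steers, but its other 2 lay among those of the other groups, and its difference from the rest was -0.41 (SE 0.252, exact permutation p = 0.136, limma adjusted p = 0.964). Without LL steer 1 it was -0.25.

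IRF4, which acts upstream of PRDM1 in the change to a plasma cell, was 9.49, 9.50, 10.32 and 10.50 in the HH steers and 9.94, 9.79, 10.24 and 11.07 in the HL steers. It was 9.43, 10.20, 9.55 and 9.72 in the LL steers and 9.92, 9.86, 9.95 and 10.55 in the LH steers. The HH steers were split into 2 low and 2 high, and LH steer 4 stood above the other 3 of its group. Its largest contrast relative to the error was the interaction, at -0.65 (SE 0.419, exact permutation p = 0.154, limma adjusted p = 0.9999), or -0.39 without HL steer 4.

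XBP1, the factor that expands the ER, was 15.44, 15.76, 15.83 and 16.90 in the HH steers and 16.21, 16.0004, 15.99 and 16.76 in the HL steers. It was 15.77, 15.95, 15.47 and 15.76 in the LL steers and 15.75, 16.42, 15.09 and 15.47 in the LH steers. The highest steers were HH steer 4 and HL steer 4, and the lowest was an LH steer. The high gain steers lay 0.40 above the low gain steers (SE 0.216, exact permutation p = 0.0939, limma adjusted p = 0.837), which did not pass the test, and 0.25 above them without HH steer 4.

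The 2 surface proteins by which plasma cells are commonly sorted, SDC1 (CD138) and CD38, alone among the 10 genes had their LL mean above that of the other groups. SDC1 was 7.48, 7.61, 7.75 and 7.68 in the HH steers and 7.72, 7.44, 7.93 and 7.57 in the HL steers. It was 7.86, 7.81, 8.07 and 7.86 in the LL steers and 7.34, 7.33, 7.80 and 7.86 in the LH steers. The LL steers all lay in the upper part of the range but overlapped with steers of other groups. Their difference was 0.27 (SE 0.123, exact permutation p = 0.0242, limma adjusted p = 0.892). SDC1 is also made by epithelium. Of 5 epithelial markers, 2 were higher and 3 lower in this group, with a median of -0.02, and none was at an unadjusted p of 0.05. Only 2 of these 5 had a signal above the median level of all rows. The part of epithelium in the SDC1 difference was not tested.

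CD38, an enzyme on the surface of plasma cells and of many other leukocytes, had the largest F p of the 10 genes. It was 11.57, 10.61, 11.14 and 11.36 in the HH steers and 11.16, 10.83, 10.71 and 11.78 in the HL steers. It was 11.03, 10.79, 11.36 and 11.56 in the LL steers and 10.87, 11.59, 10.72 and 10.86 in the LH steers. Each group held both high and low steers. Its largest contrast relative to the error was that of the LH steers, at -0.15 (SE 0.220, exact permutation p = 0.498, limma adjusted p = 0.9998), which ran from -0.34 without LH steer 2 to -0.05 without LH steer 3, and was -0.08 without HL steer 4 and -0.10 without LH steer 4. Taken singly, the 2 CD38 clusters gave -0.24 and -0.06 for that contrast.

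**Figure D2:**
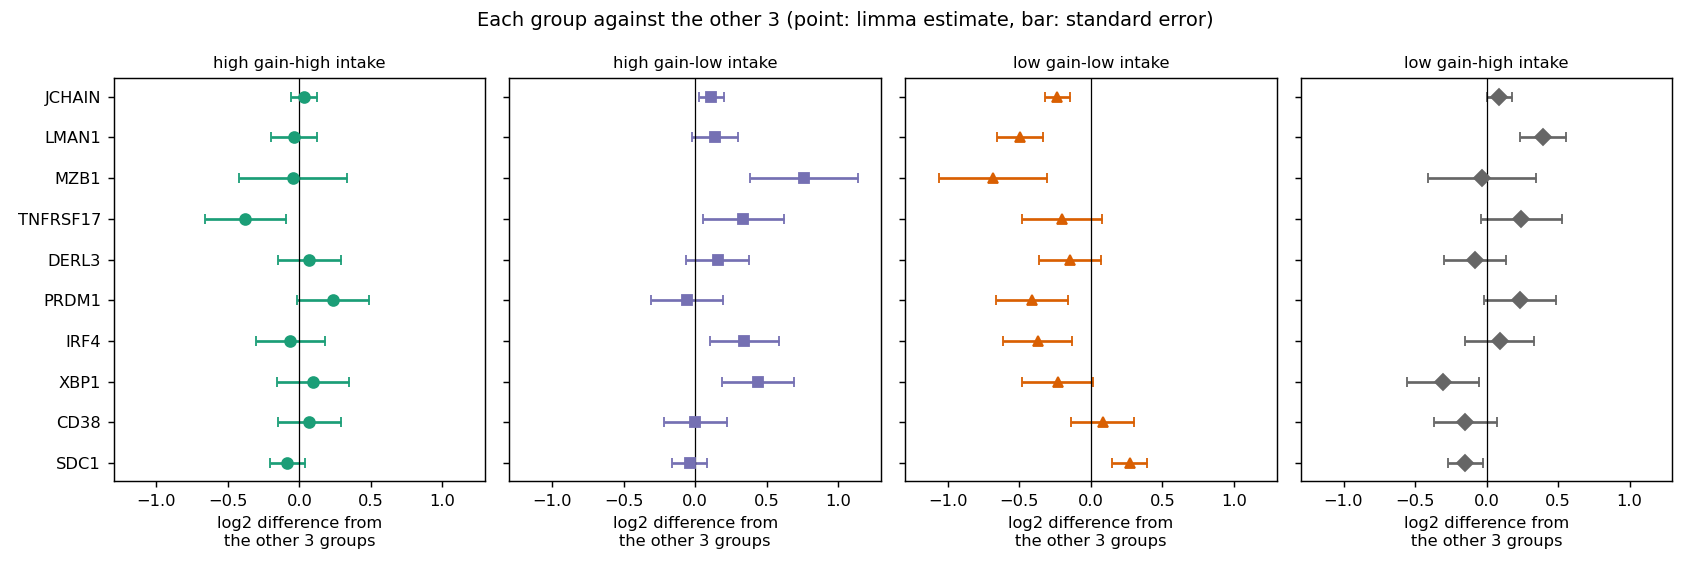
Difference of each group from the other 3 (x axis, log2, limma estimate with its standard error) for the 10 genes (y axis), 1 panel a group. In the LL panel 8 of the 10 points lie to the left of 0, and SDC1 and CD38 lie to the right.

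Over the 10 genes, the LL group had the lower mean for 8 and the higher for 2, with a median difference of -0.23 log2, while over all 24630 rows 49.5% were higher and the median was -0.002. The HL group had the higher mean for 8 of 10 (median 0.15, all rows -0.006). The interaction was below 0 for 8 of 10 (median -0.29, all rows -0.02), and the gain contrast above 0 for 8 of 10 (median 0.12, all rows -0.01). Single steers moved these medians by over 1.5 times: LL to -0.48 without LL steer 2, HL to 0.10 without HL steer 4 and 0.23 without LL steer 2, the interaction to -0.47 without HH steer 4 and -0.45 without LH steer 3, and gain to 0.06 without LL steer 1, 0.08 without LL steer 3 and 0.20 without LL steer 2. The number of genes lower in the LL group was 7 without LL steer 1 and 9 without LL steer 4. These contrasts share steers and are not separate observations. The intake contrast was split, 4 above and 6 below 0 (median -0.03, all rows 0.004).

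No group stood wholly apart from the other 12 steers in any of the 10 genes. All 4 LL steers lay above, or all below, the other 12 in 0.166% of all rows, and any group did so in 0.443%.

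**Figure D3:**
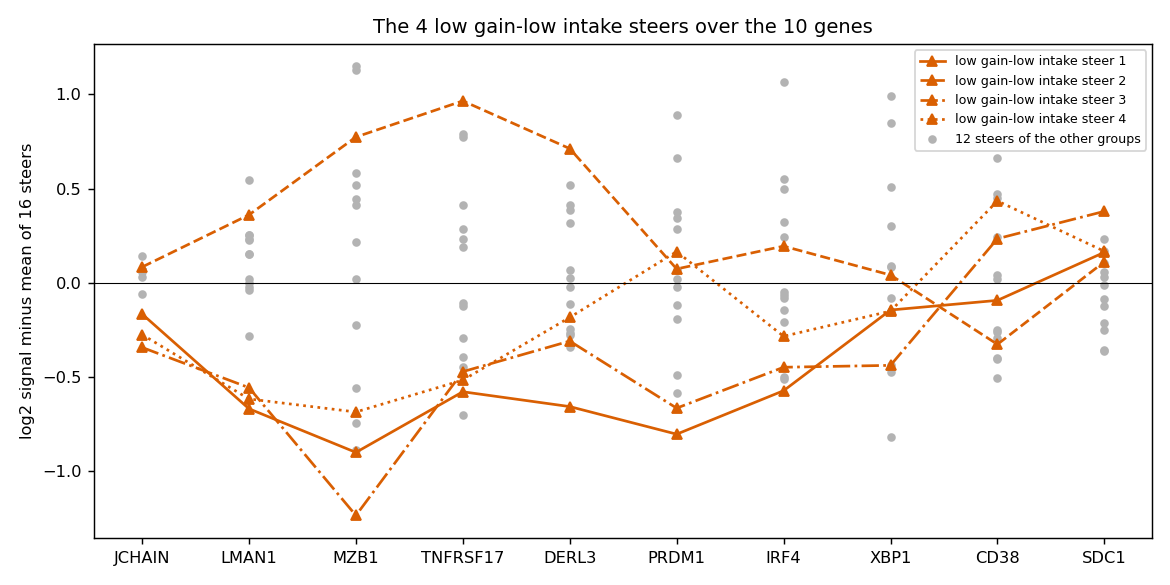
Log2 signal minus the mean of the 16 steers (y axis) for the 10 genes (x axis), with a line for each of the 4 LL steers and grey points for the other 12 steers. Steer 2 lies above the mean for 9 genes and below it for CD38, whereas steers 1, 3 and 4 lie below it for JCHAIN, LMAN1, MZB1, TNFRSF17 and DERL3.

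For LMAN1, TNFRSF17, MZB1 and DERL3, steer 2 was the farthest of the LL steers from the rest of its group. Leaving it out, which was chosen after its values had been seen, took the difference of LMAN1 from -0.50 to -0.74 (SE 0.121, limma adjusted p = 0.0481, against 0.263 to 0.999998 under all other settings tried). That of MZB1 went to -1.11 (SE 0.356, limma adjusted p = 0.484), of TNFRSF17 to -0.57 (SE 0.243, limma adjusted p = 0.655) and of DERL3 to -0.42 (SE 0.195, limma adjusted p = 0.705). The median of the 10 genes went to -0.48, still with 8 lower and 2 higher. The number of genes at an unadjusted p of 0.05 was then 6 of 10, against 6.98% of all rows. Since steer 2 was picked on values of these same genes, the share over all rows is no like background for that count. Several of the genes were also correlated over the steers, so the 6 are not separate calls. The number called was 1 of 10, LMAN1, without steer 3 (4.14% of all rows) or steer 4 (4.58%), and between 2 and 3 without any other of the 16 steers. LMAN1 was among those called in each of these 16 fits.

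Markers of other cells also differed between these steers. The mean of the 5 neutrophil markers was 11.46 in LL steer 2, the highest of all 16 steers, and 8.97 to 9.73 in the other 3 steers of its group. Over the other groups it ranged from 9.29 to 11.16 (HH), 9.35 to 10.86 (HL) and 9.25 to 10.42 (LH). In the LL group all 4 NK cell markers (median -0.42), all 5 macrophage markers (median -0.41) and all 6 markers of dividing cells (median -0.32) had lower means than in the rest. Of these 15 genes, 2 were at an unadjusted p of 0.05, against 5.41% of all rows. Of the smooth muscle markers 4 of 4 (median -0.36), of the neutrophil markers 4 of 5 (median -0.26), of the erythroid markers 4 of 5 (median -0.15), of the B cell markers 4 of 5 (median -0.12) and of the T cell markers 2 of 6 (median 0.17) were lower. The part of these cells in the results above was not tested. The arrays give no call of presence, so no marker could be said to be absent.

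Across the 16 steers, the 10 genes did not all vary together. With SDC1 and CD38 set aside, a grouping made after the values were seen, JCHAIN, LMAN1, MZB1, TNFRSF17, DERL3, PRDM1, IRF4 and XBP1 were positively correlated with one another in 28 of 28 pairs, with a median Pearson r of 0.50 (0.17 to 0.79), and of 0.51 on deviations from the group means. JCHAIN and XBP1, the pair at 0.17, went to -0.10 without the 2 steers farthest from the median of JCHAIN. SDC1 had a median r of -0.28 with the other genes (-0.54 to 0.06) and CD38 one of -0.03 (-0.39 to 0.44). Over all 45 pairs the median was 0.38. For comparison, the median r of single genes of the 10 with all other named genes above the median level ran from 0.002 to 0.09. Of the other members above that level, those among the 5% of such genes most like a gene were few for some. They were 4 of 6 for LMAN1, 4 of 7 for TNFRSF17, 3 of 6 for MZB1 and 2 of 7 for DERL3. For JCHAIN, PRDM1 and XBP1 they were 2 of 6, for IRF4 and CD38 1 of 6 and for SDC1 0 of 7.

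**Figure D4:**
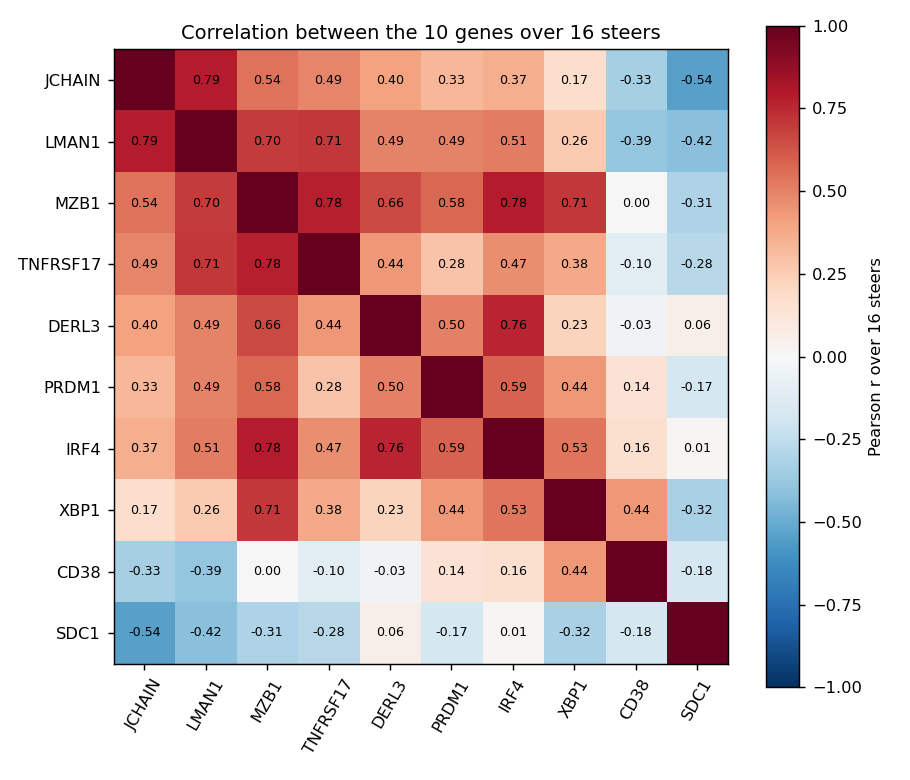
Pearson r over 16 steers for each of the 45 pairs of the 10 genes (both axes), coloured from -1 to 1. Blocks of positive values join the first 8 genes, while the rows of CD38 and SDC1 lie near or below 0, apart from 0.44 between CD38 and XBP1.

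Of the 45 pairs, 8 passed an adjusted permutation p of 0.05 by Pearson's r and 8 by Spearman's rho, with the p adjusted over the 45 pairs. TNFRSF17 and MZB1 had r = 0.78 and rho = 0.81 (permutation p = 0.00052, adjusted 0.009), and r = 0.78 without the 2 steers farthest out in TNFRSF17. IRF4 and MZB1 had r = 0.78 and rho = 0.73 (permutation p = 0.00033, adjusted 0.009), and r = 0.76 without 2 steers. JCHAIN and LMAN1 had r = 0.79 and rho = 0.67 (permutation p = 0.0013, adjusted 0.0146), and r = 0.62 without 2 steers. On deviations from the group means the r of JCHAIN and LMAN1 was 0.63, and that of TNFRSF17 and MZB1 was 0.82. The values of JCHAIN are not exact, since 8 of the 16 steers shared 1 value. IRF4 and DERL3 had r = 0.76 (permutation p = 0.0006, adjusted 0.009), TNFRSF17 and LMAN1 0.71 (0.00214, adjusted 0.016) and MZB1 and LMAN1 0.70 (0.00267, adjusted 0.0172). MZB1 and XBP1 had r = 0.71 (permutation p = 0.00176, adjusted 0.0158) and rho = 0.62, which did not pass (adjusted p = 0.0586), and r = 0.50 without 2 steers. Without LL steer 2, TNFRSF17 and MZB1 had r = 0.77 and JCHAIN and LMAN1 r = 0.78.

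The named genes above the median level whose signal was most like that of MZB1, over 9575 such genes and 16 steers, were PRDX4 (r = 0.88), TXNDC5 (r = 0.86), CD27 (r = 0.85), PRKAR2A (r = 0.85) and SEC11C (r = 0.84). PRDX4 is a peroxiredoxin and TXNDC5 a disulfide isomerase of the ER, SEC11C is a subunit of the signal peptidase, CD27 is a surface receptor of T cells, memory B cells and plasma cells, and PRKAR2A is a regulatory subunit of protein kinase A. On deviations from the group means these values were 0.89, 0.85, 0.81, 0.87 and 0.85. Of the 9575 genes, 5% had an r above 0.58 with MZB1. For LMAN1 the order was PRDX4 (r = 0.83), JCHAIN (0.79), TXNDC5 (0.78), RAB32 (0.76) and ARFGAP3 (0.76). For TNFRSF17, MZB1 came first of 9576 genes (r = 0.78), followed by GSTK1 (0.77), EDF1 (0.76), LOC100847119 (0.75) and TXNDC5 (0.74).

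PRDX4, which takes part in oxidative folding, was 9.001, 9.40, 9.17 and 9.66 in the HH steers and 9.44, 9.30, 9.29 and 9.77 in the HL steers. It was 8.70, 9.55, 8.71 and 8.55 in the LL steers and 9.71, 9.12, 9.03 and 9.57 in the LH steers. As for LMAN1, LL steers 1, 3 and 4 were the 3 lowest of the 16 and steer 2 lay among the 5 highest. The group differed from the rest by -0.50 (SE 0.184, limma adjusted p = 0.807).

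**Figure D5:**
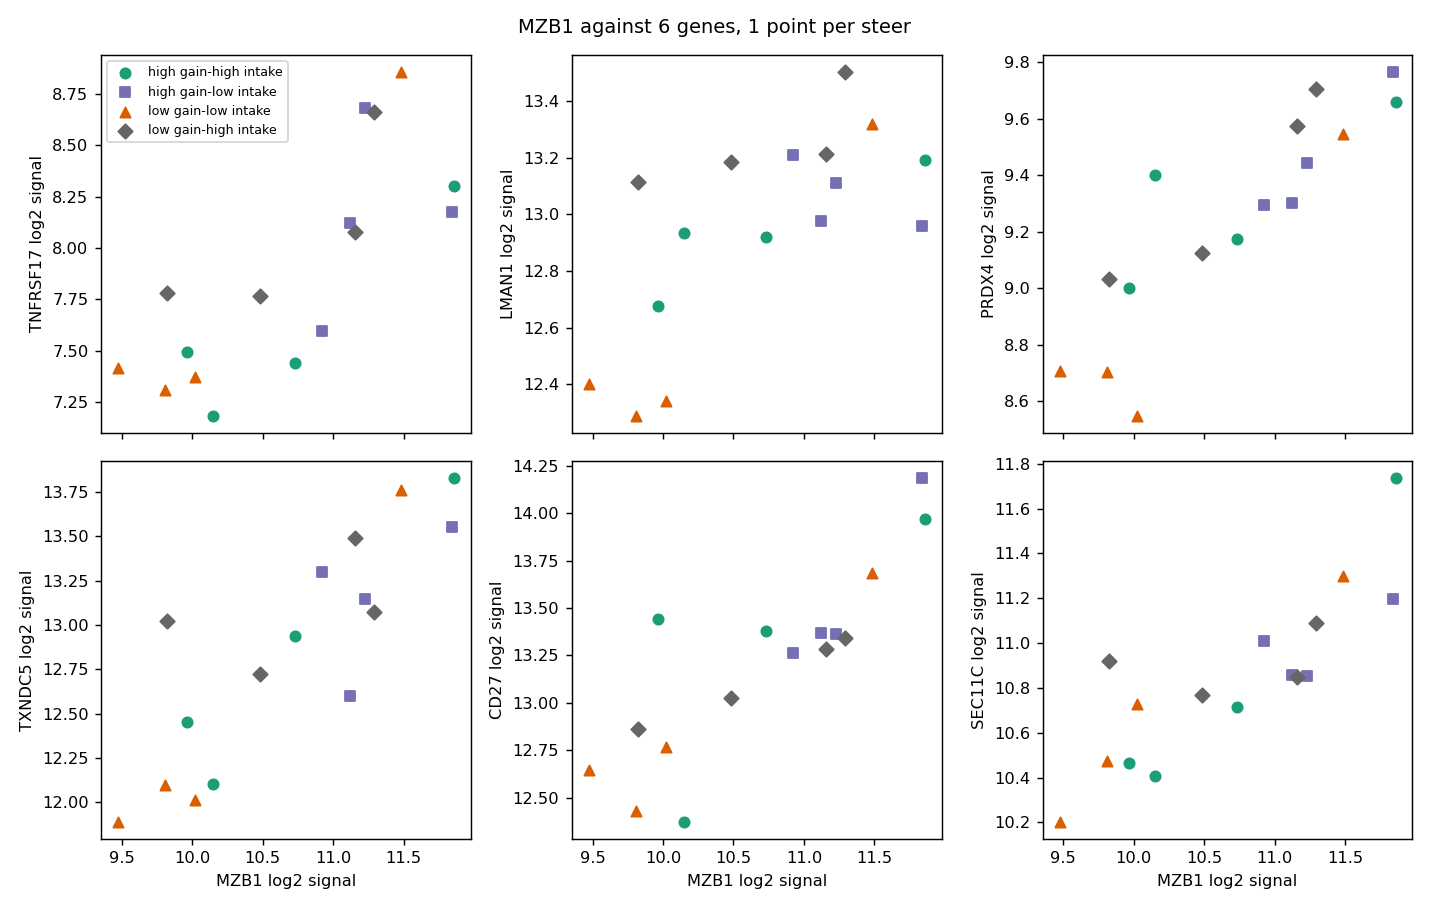
Log2 signal of TNFRSF17, LMAN1, PRDX4, TXNDC5, CD27 and SEC11C (y axes) against that of MZB1 (x axes) in 16 steers, with colour and shape for the group. LL steers 1, 3 and 4 lie at the low end of MZB1 in each panel and steer 2 of the same group towards the upper right.

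Neutrophil markers were also positively correlated with MZB1. All 5 had an r above 0 with it (median 0.61, 0.40 to 0.63), and 3 of the 5 were among the 5% of genes most like it. The B cell markers had r near 0 (5 genes, median -0.07, -0.23 to 0.27) and the T cell markers a little below (6 genes, median -0.14, -0.37 to 0.07). For the 5 macrophage markers the median was 0.36 (0.09 to 0.65), and 1 was among the 5% most like MZB1. For the 4 NK cell markers it was 0.21 (-0.45 to 0.75), also with 1 among that 5%. The part of neutrophil content in the likeness of these genes was not tested.

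The other genes of the pathway were taken by role. Of the immunoglobulin chains and antibody receptors listed, 4 of 17 were found under a single symbol. IGHE, the epsilon heavy chain, differed by -0.60 in the LL steers (SE 0.301, limma adjusted p = 0.938), and IGLL1 by less than 0.01 (estimate -0.003, SE 0.175). The other 2, PIGR and FCGRT, transport antibody across cells. The main heavy and light chains were not analysed here.

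Of 41 other plasma cell and plasmablast genes, 2 had an unadjusted F p under 0.05 (ELL2 and BCL2), against 4.62% of all rows, and none passed after adjustment. In the LL steers 17 were higher and 24 lower (median -0.08). ELL2, the elongation factor that favours the secreted form of the heavy chain, had an LL mean 1.24 above that of the rest (SE 0.343, limma adjusted p = 0.62), where those of JCHAIN and LMAN1 lay below, and its r with MZB1 was -0.21. BCL2, a survival factor, differed by 0.03 (SE 0.222) in the LL steers, so its F p rests on differences among the HH, HL and LH groups. With MZB1, 29 of the 41 genes had an r above 0 (median 0.18), and 6 of the 31 above the median level were among the 5% most like it.

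Translocation into the ER was measured by 24 genes. In the LL steers 7 were higher and 17 lower (median -0.13), with SRP68, a protein of the signal recognition particle, at -0.18 (SE 0.160) and SEC11A, a signal peptidase subunit, at -0.30 (SE 0.129, limma adjusted p = 0.871). Of the 24, 16 had an r above 0 with MZB1 (median 0.37, from -0.45 to 0.84), and 5 were among the 5% most like it.

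Transport from the ER to the Golgi was measured by 32 genes, 10 higher and 22 lower in the LL steers (median -0.06). GOSR2, a membrane fusion protein of the Golgi, lay at -0.51 (SE 0.212, limma adjusted p = 0.86) and SEC31A, of the COPII coat, at 0.15 (SE 0.135). Of the 32, 23 had an r above 0 with MZB1 (median 0.41), and 7 of the 31 above the median level were among the 5% most like it.

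Of 25 genes for the folding and assembly of antibody, 12 were higher and 13 lower (median -0.04), with PPIB, a proline isomerase, at -0.34 (SE 0.198). The r with MZB1 was above 0 for 21 of the 25 (median 0.36, from -0.53 to 0.88), and 3 of the 25 were among the 5% most like it. Of 18 genes of ER-associated degradation, 4 were higher and 14 lower (median -0.07). HERPUD1, a stress-induced part of the degradation complex, was at 0.55 (SE 0.194, limma adjusted p = 0.795) and FAF2, which recruits the segregase VCP, at -0.35 (SE 0.128, limma adjusted p = 0.807). All 18 had an r above 0 with MZB1 (median 0.41, 0.05 to 0.60), but only 1 of the 18 was among the 5% most like it.

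The sensors of the unfolded protein response and their factors were divided. In the LL steers 5 of 10 were higher and 5 lower (median 0.02), and 2 had an unadjusted F p under 0.05, against 4.62% of all rows. DDIT3 (CHOP), a stress transcription factor, lay at 0.61 against the rest (SE 0.158, limma adjusted p = 0.536), and ERN2, a relative of the sensor that splices XBP1 mRNA, lay at -0.03 (SE 0.122). The F p of ERN2 thus rests on differences among the HH, HL and LH groups. Neither gene was positively related to MZB1 (r = -0.37 for DDIT3 and -0.54 for ERN2). Of the 10 genes, 6 had an r above 0 with MZB1 (median 0.16). Among the 9 above the median level, 1 was among the 5% most like it.

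The B cell program that PRDM1 represses was measured by 18 genes. In the LL steers 8 were higher and 10 lower (median -0.07), and none had an unadjusted F p under 0.05. BACH2, which holds back PRDM1, lay at 0.69 (SE 0.360, limma adjusted p = 0.938) and BLK, a kinase of the B cell receptor, at 0.35 (SE 0.216). With MZB1, 11 of the 18 had an r above 0 (median 0.10), and none was among the 5% most like it. With LMAN1 in place of MZB1, the median r was 0.23 for translocation, 0.19 for transport and 0.13 for folding. It was 0.16 for ER-associated degradation and 0.06 for the other plasma cell and plasmablast genes. Among markers of other cells, the median r with LMAN1 was highest for smooth muscle (0.39) and neutrophils (0.38) and lowest for T cells (-0.22).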

How the data were processed

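Spleen RNA of 16 steers was extracted with TriPure and column-cleaned, and hybridised to 1 array each. The authors normalized for GC content, stretched the signal (SST) and applied RMA in Affymetrix Expression Console. The deposited values are log2 signals, 1 per transcript cluster and steer, and log2 differences are those of the stretched scale. Transcriptome Analysis Console is also named in the submitters' processing notes. The sources used here give no program versions.

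Of 26773 features, 1776 below the first annotated ID and 21 rows with the same value on every array were left out. Clusters of a gene were averaged, and 385 clusters with several symbols were not named. Array medians were 8.27 to 8.39, and arrays correlated at 0.955 to 0.986. The precision rests on 4 arrays in each group, and other limits on it were not compared. A model of the 4 group means was fitted in limma 3.58.1 (R 4.3.3), with p-values adjusted by Benjamini-Hochberg over all 24630 rows. Harvest day and breed of each steer were not in the labels and not in the model. Two-sided exact permutation tests over steers shuffled all groups (smallest p 0.000549 for 1 group against 12 steers). Pairs of genes had 100000 permutations. The fit was tested on simulated data. The members and lists were chosen with earlier results of these data known. Named genes are the 10 members, the 2 genes of each list of the pathway with the smallest F p, and the 5 most like a member described. PIGR and FCGRT, and the genes named for the settings in the closing section, were named after their values were seen. Alternatives were array weights, moderation by an intensity trend with robust estimates, ordinary least squares, median centring, quantile normalization, dim rows left out, all deposited features, each CD38 cluster alone and each steer left out.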

Additional observations from a re-analysis of the deposited data

Results flagged for a closer look

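In 4 combinations of gene and group, 1 value stood apart from the other 3 steers of the group by Dixon's test. LMAN1 was 13.32 in LL steer 2 and 12.29 to 12.40 in the other 3. TNFRSF17 was 8.86 in the same steer and 7.31 to 7.42 in the other 3. IRF4 was 10.55 in LH steer 4 and 9.86 to 9.95 in the others. JCHAIN was 19.65 in HL steer 1, where the other 3 shared the value 19.5825, so that any higher value would have stood apart. Over the 40 combinations of gene and group, chance alone gives about 2 such values, 1 in 20.

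The interaction of gain and intake had an exact permutation p under 0.05 for LMAN1 and JCHAIN, uncorrected for the 10 genes tested, and passed for neither after limma's adjustment. These permutations shuffled all 16 steers, so they test against no difference between any of the groups and not against the lack of an interaction alone. It was -0.80 for LMAN1 (exact permutation p = 0.0228, limma adjusted p = 0.9999), and -1.04 without LL steer 2 (SE 0.195, limma adjusted p = 0.364). The value for JCHAIN was -0.30 (exact permutation p = 0.0143, limma unadjusted p = 0.0642, adjusted 0.9999). All 4 LH steers and 3 of the 4 HL steers held the shared value 19.5825, so neither the size nor the p of the JCHAIN interaction can be read as exact, and no difference between the levels of gain is drawn from it.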

How the results depend on the processing

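Over 25 results and 582 values under other settings, 568 kept their direction and their side of the threshold or moved by less than the replicate spread, 13 counts moved and 1 gene passed the threshold. Each gene was followed only in the contrast of its smallest p, at limma adjusted p of 0.74 to 0.9999, with little room to cross 0.05. In that contrast no gene changed sign. In the LL contrast, DERL3 went from -0.15 to 0.04 without LL steer 1, and CD38 from 0.08 to -0.04 without LL steer 4. For the medians the spread was 0.28, about the size of the largest (-0.29), so a median that changed sign could count as kept. The count of 568 is thus no measure of stability. With array weights, the LL contrast called 10 rows at an adjusted p of 0.05, in place of 0, and none of them was one of the 10 genes. With each steer left out in turn, this count ran from 0 to 12, with 12 without LL steer 2, 2 without HH steer 4 and 1 without LL steer 4. The counts of the F test, of gain, intake and the interaction, and of each of the other 3 groups against the rest ran from 0 to 1. The gene that passed was LMAN1, at -0.74 (limma adjusted p = 0.0481) without LL steer 2, and its limma adjusted p was 0.263 with array weights and from 0.618 to 0.999998 under its other settings. The median of the 10 genes in the LL contrast ran from -0.48 to -0.16 with single steers left out and was -0.37 with dim rows left out, which removed 3 of the 10. For intake, HH and LH the median lay near 0 and took either sign with steers left out. No paired analysis was possible because the labels give the steers no number shared between groups. Signals of TNFRSF17, SDC1 and DERL3 lay below the median of all rows (8.288), the dim end of these arrays.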

Other observations

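The signals most like those of the other genes were of varied kinds, over 16 steers and named genes above the median level. For CD38 they were FCER2 (r = 0.72), the low-affinity IgE receptor of B cells, TBC1D5 (0.71), MOB3B (0.71), BASP1 (0.70) and SMAP2 (0.70). For IRF4 they were COPG1 (0.91), a subunit of the COPI coat, SNX17 (0.90), PCBP2 (0.90), TAF10 (0.90) and CNN2 (0.89), and 5% of all such genes had an r above 0.67 with IRF4. For DERL3 they were GSDMD (0.89), RRAGA (0.87), SRGAP2 (0.85), SERPINB1 (0.81) and JMJD8 (0.80), and for SDC1 CNKSR3 (0.81), PALLD (0.78), PEX6 (0.76), LBH (0.75) and F3 (0.74). For XBP1 they were DRG2 (0.86), TNFRSF1A (0.81), PMM2 (0.79), ARF2 (0.79) and MRPL16 (0.78), for PRDM1 HLF (0.81), AP2S1 (0.79), SCARB2 (0.79), FAM91A1 (0.78) and H2BC3 (0.77), and for JCHAIN AASS (0.86), LOC781337 (0.81), DIS3L (0.81), HDHD2 (0.79) and LMAN1 (0.79). The r values of JCHAIN are not exact, since 8 of the 16 steers shared 1 value.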
